A study of Nothobranchius furzeri with 12 samples.

Results

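The gene kcnk3a encodes a potassium channel of the tandem pore domain (K2P) family, and it was read here in the tail fin of the killifish Nothobranchius furzeri, a small annual fish of seasonal African ponds. It is 1 row, entry XM_015947464, of the 20788 transcript entries in the deposited table. It was selected on the values of that row in all 12 libraries, so its levels and differences are given as a description, with no test. The libraries were made from total RNA of excised tail fin and primed on the poly(A) tail, in 4 groups of 3 that the series' design text calls biological replicates. Red tails came from the strain MZCS002 and yellow tails from the strain GRZ-BELL. For each, the pigmented region was taken. The other groups were the corresponding region from MZCS002 females and from GRZ-BELL females. The labels name no treatment or transgene, give no age, and do not state the sex of the fish with coloured tails. Red therefore always went with MZCS002 and yellow with GRZ-BELL, and colour and strain cannot be told apart. Within a strain, coloured tails were set against females, so colour and sex cannot be told apart there either.

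K2P channels carry a potassium current that is open at rest and so help to hold the membrane potential of a cell negative. The mammalian KCNK3 protein, also called TASK-1, is closed by acid outside the cell and by receptors that act through Gq proteins, and it is known from vascular smooth muscle, the carotid body and the adrenal cortex. In zebrafish, potassium channels are known to shape the fin and its colour: the K2P gene kcnk5b affects fin length, and the inward rectifier gene kcnj13 affects the stripes that pigment cells form.

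Reads recovered from the normalized counts came to between 5495553 and 17053983 per library. MZCS002 female 2 stood apart with the lowest total, a size factor of 0.318, 16400 entries with a read against 17644 to 18667 elsewhere, and a mean correlation with its own group of 0.847 against 0.895 to 0.957. In that library 3 reads equalled 9.43 normalized counts, against 2.04 to 4.12 in the others. Markers of fin tissue, such as the fin ray genes and1 and and2 and the epidermal gene krt5, were present in the table. Of 74 marker genes of fin cell types matched to an entry by symbol, 65 had a mean normalized count of at least 10 and were tested. Other listed markers were not matched by symbol and were not analysed here. In bulk tissue, fewer cells of a type and less RNA per cell cannot be told apart.

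Transcripts of kcnk3a were abundant in red tails and scarce everywhere else. The normalized counts were 450 in red 1, 642 in red 2 and 404 in red 3. In yellow tails they were 26.1, 11.3 and 13.7 for libraries 1 to 3. In MZCS002 females they were 12.6, 0 and 12.9, and in GRZ-BELL females 21.1, 16.7 and 15.6. All 3 red libraries lay far above the other 9. The yellow libraries overlapped both female groups, while the 3 MZCS002 female libraries lay below the 3 GRZ-BELL female ones. The gap was wide: the lowest red library held 15.5 times the highest library outside the red group, yellow 1. Group means were 499 ± 126 in red tails, 17.0 ± 7.94 in yellow tails, 8.50 ± 7.36 in MZCS002 females and 17.8 ± 2.93 in GRZ-BELL females (SD, n = 3 each).

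**Figure D1:**
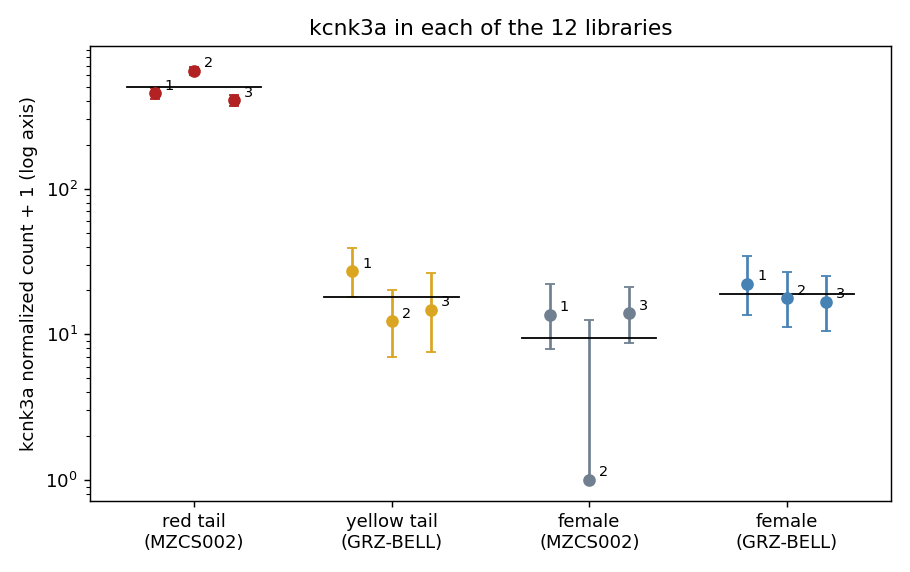
Normalized count of kcnk3a plus 1 (log axis) in each library, by group. Points are libraries, labelled with their replicate number, whiskers are exact 95% Poisson intervals of the reads, and horizontal lines are group means. The 3 red libraries sit between 404 and 642 and the other 9 between 0 and 26.1.

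In order of their means, red tails came first by a wide margin, followed by GRZ-BELL females, yellow tails and MZCS002 females. GRZ-BELL females and yellow tails differed by less than the SD of either. MZCS002 females, whose mean includes a library with no read, lay below both by more than their own SD, though their libraries overlapped those of yellow tails. The ratio of means was 29.3 for red over yellow tails, 58.7 for red tails over MZCS002 females and 28.0 for red tails over GRZ-BELL females. Yellow tails over GRZ-BELL females gave 0.957. From summed reads, this last ratio was 0.979 with an exact 95% counting interval of 0.655 to 1.46. Such an interval pools the reads of a group and leaves out the spread between libraries. It therefore does not show how large a difference could have been detected. For red over yellow tails the summed-read ratio was 29.2 (22.0 to 39.6).

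The counts behind these levels were unequal. The red libraries held 523, 800 and 536 kcnk3a reads. The yellow libraries held 26, 13 and 10, the MZCS002 females 14, 0 and 19, and the GRZ-BELL females 18, 20 and 20. The red libraries were thus well counted, with exact 95% Poisson intervals of 413 to 491, 599 to 689 and 371 to 440 normalized counts. Across the 3 red libraries the coefficient of variation was 25.3%. In the other groups counting error was of the size of the differences between libraries, for example 17.0 to 38.2 in yellow 1 and 6.01 to 19.3 in yellow 2.

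The library without a kcnk3a read was MZCS002 female 2, the shallowest. Taken as 3 reads, the limit that a count of 0 allows was 9.43 normalized counts there, and the upper end of the exact 95% Poisson interval drawn in the plot of kcnk3a by library was 11.6. At the level of MZCS002 females 1 and 3, 12.7 ± 0.24 (SD, n = 2), it would have held 4.06 reads. Without that library the ratio of red tails to MZCS002 females was 39.1 in place of 58.7, with a summed-read ratio of 39.0 (27.7 to 56.8). GRZ-BELL females held 2.10 times the mean of MZCS002 females, and the summed-read ratio was 1.53 (0.982 to 2.42). That interval includes equal levels, but it covers counting error only and not the spread between libraries.

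On the log2(normalized count + 1) scale used for the tests of other genes, kcnk3a was 6.42 ± 0.80 higher in red tails than in MZCS002 females and 4.85 ± 0.80 higher than in yellow tails (difference ± SE of the fit). Yellow tails minus GRZ-BELL females came to -0.14 and MZCS002 minus GRZ-BELL females to -1.70. The excess of the red tail difference over the yellow tail difference, called the interaction below, was 6.55 ± 1.14. Without MZCS002 female 2 the differences that use it were 5.16 for red tails, -0.44 between the females and 5.29 for the interaction. Among the 15170 tested entries, the gap between the lowest red library and the highest other one, 3.90 log2 units for kcnk3a, ranked number 3. The red minus yellow difference ranked number 30 and the interaction number 5. For scale, 732 entries (4.83%) had all 3 red libraries above all 9 others.

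For the other genes, each comparison was tested with limma over all 15170 entries, and calls were made where the p adjusted by the Benjamini-Hochberg method was below 0.05. The share of all entries called higher and lower was 2.71% and 1.82% for red tails against MZCS002 females, 3.85% and 3.58% for red against yellow tails, and 1.49% and 0.349% for yellow tails against GRZ-BELL females. It was 0.817% and 0.923% for MZCS002 against GRZ-BELL females, and 0.0857% and 0.0923% for the interaction. These are the backgrounds for the limma calls that follow. In the same order, DESeq2 called 11.6%, 15.5%, 4.69%, 5.33% and 4.12% of all entries in either direction. Counts by edgeR or at an unadjusted p are given without a share over all entries, so they are not read as results about a list. Scaling to equal totals moved the median of all entries from 0.01 to 0.25 for red tails against MZCS002 females and changed 411 higher and 276 lower calls to 646 and 134. The same scaling gave 670 and 363 in place of 584 and 543 for red against yellow tails, 85 and 178 in place of 124 and 140 between the females, and 28 and 8 in place of 13 and 14 for the interaction.

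The table held 11 entries with a K2P gene symbol, kcnk3a among them. Of the other 10, only kcnk1b and kcnk2b reached a mean of 10. The close relative kcnk3b, a second copy of the same ancestral gene in teleost fish, had 4 reads in all 12 libraries, against 1999 for kcnk3a. The other members of the TASK subfamily, kcnk9 and kcnk15, had 13 and 4 reads. Mechanically and lipid gated members were also thin, with 106 reads for kcnk4a, 65 for kcnk10b and 2 for kcnk2a. The remaining kcnk12l and kcnk12 had 71 and 7. Whether near-identical copies shared or exchanged reads was not tested.

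The widely expressed K2P gene kcnk1b did not share the pattern of kcnk3a. Its normalized counts were 660, 256 and 278 in red tails and 186, 133 and 133 in yellow tails. They were 259, 113 and 254 in MZCS002 females and 409, 345 and 478 in GRZ-BELL females. The yellow libraries lay below all 3 GRZ-BELL female libraries, whereas the red and MZCS002 female libraries overlapped. With all libraries in the fit, no limma comparison of kcnk1b passed the threshold. The difference was 1.27 ± 0.40 for red minus yellow tails (adjusted p = 0.070) and -1.45 ± 0.40 for yellow tails minus GRZ-BELL females (adjusted p = 0.11). For the interaction it was 2.33 ± 0.56 (adjusted p = 0.13). DESeq2 on the recovered reads called those 3 differences, with adjusted p = 0.010, 0.018 and 0.0066. Without MZCS002 female 2, limma called kcnk1b for red minus yellow tails (adjusted p = 0.019). It then also called yellow tails minus GRZ-BELL females (adjusted p = 0.026). The mechanically gated channel gene kcnk2b was at 36.3 ± 9.61 in red tails, 25.9 ± 20.0 in yellow tails, 22.6 ± 8.68 in MZCS002 females and 11.7 ± 7.48 in GRZ-BELL females (SD, n = 3 each), and was called in no comparison by limma, edgeR or DESeq2. In limma with all libraries in the fit, 0 of these 2 genes were called in any comparison. Of the 2, 1 had an unadjusted p under 0.05 in each of the 5. The edgeR count was 0 in each.

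**Figure D2:**
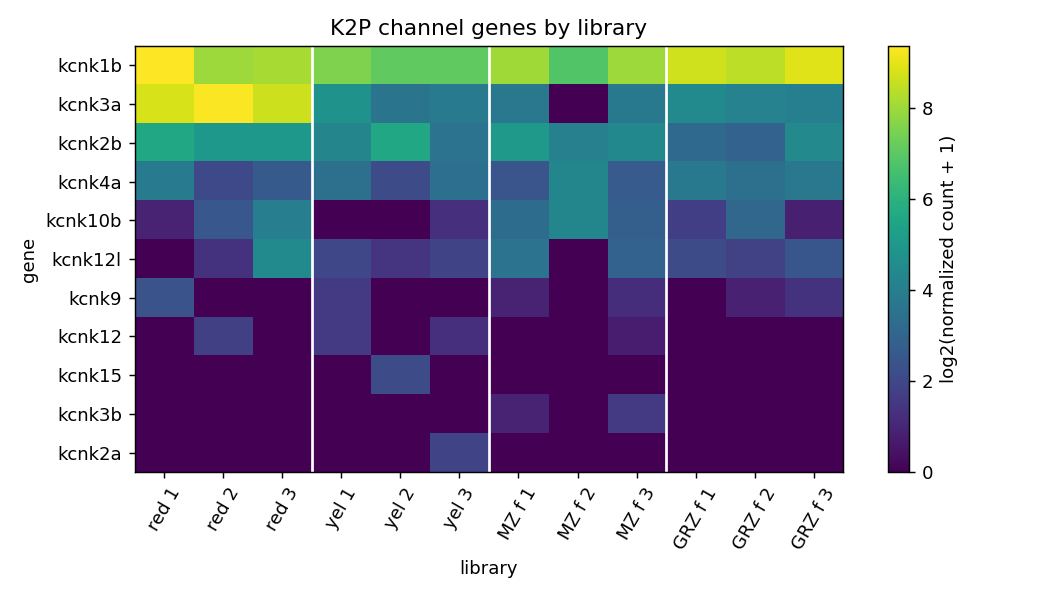
Level of each K2P gene in each library as log2(normalized count + 1), in colour, with libraries in columns by group (MZ f, MZCS002 female, and GRZ f, GRZ-BELL female) and genes ordered by their mean. Values are not divided by transcript length, so only colours within a row can be compared: kcnk3a is bright in the 3 red libraries only, while kcnk1b is bright in all 12.

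Of 44 other potassium channel genes in the table, which include inward rectifiers, voltage-gated and calcium-activated channels and auxiliary subunits, 12 were tested. In limma 0 were called between red tails and MZCS002 females, with 6 at an unadjusted p under 0.05. There edgeR called 0, and DESeq2 called 3, of which 1 was higher and 2 lower in red tails. The median difference of the 12 was 0.10, against 0.01 over all entries. Between red and yellow tails 1 was called lower, with a median of -0.74 against -0.01. This was kcnh1a, an ether-a-go-go type voltage-gated channel gene, at 23.4 ± 8.47 in red and 67.5 ± 9.81 in yellow tails (-1.55 ± 0.43, limma adjusted p = 0.045), with all red libraries below all yellow ones. The call was lost without any 1 of the red, yellow or GRZ-BELL female libraries, and the adjusted p reached 0.18.

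Between MZCS002 and GRZ-BELL females 1 was called lower, the G protein-gated inward rectifier gene kcnj6, at 2.48 ± 2.39 against 23.8 ± 14.0 (-3.02 ± 0.68, limma adjusted p = 0.042). It was lost without any 1 of the red, yellow or GRZ-BELL female libraries, or without MZCS002 female 1, and the adjusted p reached 0.18. Between yellow tails and GRZ-BELL females limma, edgeR and DESeq2 each called 0, with 3 at an unadjusted p under 0.05 in limma. For the interaction all of these tools called 0, with 1 at an unadjusted p under 0.05. With all libraries in the fit, limma called none of these 12 genes higher in red tails. Of all entries it called 2.71% higher against MZCS002 females and 3.85% against yellow tails, so 0 of 12 is near those shares. Without MZCS002 female 2, limma called 1 of the 12 higher and 1 lower in red tails than in MZCS002 females. The nearest of these 12 genes in mean pattern was kcng2, a modifier subunit of voltage-gated channels. Its means were 25.8 ± 10.5 in red tails, 13.7 ± 8.61 in yellow tails, 7.82 ± 6.82 in MZCS002 females and 15.4 ± 11.9 in GRZ-BELL females (red minus MZCS002 female 2.21, limma adjusted p = 0.21). The MZCS002 female libraries were at 12.6, 0 and 10.9, and the 0 is that of the shallow MZCS002 female 2. Red libraries, at 14.6, 27.3 and 35.4, overlapped those of GRZ-BELL females, at 4.70, 13.3 and 28.1. This gene was picked out after its values were seen.

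Among the tested genes for proteins that bind, traffic or regulate TASK channels, limma called none. Limma called at most 7.43% of all entries in a comparison, so for a list of this size a count of 0 is near that share. It is not read as a result about these genes. Of 38 listed, 15 were not matched to an entry by symbol and were not analysed here, 23 were in the table and 21 were tested. They include 14-3-3 proteins and COPI coat subunits, which in mammals compete over whether the channel leaves the endoplasmic reticulum, the syntaxin gene stx8, the Gq family gene gna11b, and endothelin and its receptor. In limma 0 were called in each of the 5 comparisons. Those at an unadjusted p under 0.05 numbered 4 for red tails against MZCS002 females, 5 for red against yellow tails, 3 for yellow tails against GRZ-BELL females, 4 between the females and 4 for the interaction. In the same order edgeR called 0 in each, and DESeq2 called 2, 3, 2, 0 and 0. The median difference was 0.18 for red tails against MZCS002 females and -0.12 for red against yellow tails. All 3 red libraries lay above all 9 others for 2 of the 21, stx8 and the 14-3-3 gene ywhae1, against 4.83% of all entries. The red libraries of ywhae1 stood at 2524, 2496 and 2447 normalized counts, and the highest of the others, yellow 2, at 2330. The smallest adjusted p for red tails against MZCS002 females was that of stx8, with a mean of 346 ± 56.2 against one of 200 ± 69.1 (0.84 ± 0.27, limma adjusted p = 0.092). For red against yellow tails it was that of gna11b, at 599 ± 92.0 against 896 ± 13.0 (-0.59 ± 0.19, limma adjusted p = 0.081).

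Of 43 genes listed for ion transport, fin growth or pigment patterning in zebrafish, or related to those, 19 were in the table and 13 were tested. The list is mixed, since srm, sms, sema3d, rcan1b, rcan3, ppp3r1a and ppp3ccb are not ion transport genes. Of the 13 tested, 1 was called higher in red tails than in MZCS002 females. This was atp1b1b, which encodes a beta subunit of the sodium/potassium pump. The red libraries stood at 1044, 797 and 653 normalized counts and those of MZCS002 females at 145, 333 and 171, with no overlap. They were 268, 460 and 297 in yellow tails and 593, 198 and 317 in GRZ-BELL females, which overlapped each other. The difference for red tails against MZCS002 females was 2.01 ± 0.41 (limma adjusted p = 0.019). Leaving out red 1, red 2 or MZCS002 female 3 ended this call, and the adjusted p then reached 0.082. Against yellow tails the difference was 1.29 ± 0.41 (limma adjusted p = 0.075).

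That list had 0 limma calls in the other 4 comparisons. Unadjusted p under 0.05 was reached by 5 genes for red against yellow tails, 2 for yellow tails against GRZ-BELL females, 1 between the females and 1 for the interaction. The edgeR count was 0 in each of these, and DESeq2 called 2, 1, 0 and 1. The inward rectifier gene kcnj13 was under the limit of testing, with means of 0.27 in red tails, 1.25 in yellow tails and 0.39 in GRZ-BELL females; in MZCS002 females it was at 22.0 in library 2 and at 0.90 and 0 in the others. The gap junction gene gja1b was at 66.6 ± 26.0 in red and 281 ± 163 in yellow tails (-1.90 ± 0.77, limma adjusted p = 0.15), and gja4 had means of 2.67 to 3.98. The genes kcnk5b, kcnh2a, slc12a7a, gja5b and igsf11 were not matched to an entry by symbol and were not analysed here.

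Most pigment cell markers were higher in red tails than in MZCS002 females, as kcnk3a was, and most were also higher in yellow tails than in GRZ-BELL females, where kcnk3a was not. In red tails limma called 5 of 8 melanophore, 5 of 6 xanthophore and 4 of 6 iridophore markers higher than in MZCS002 females, and none lower. In yellow tails it called 6 of 8, 5 of 6 and 5 of 6 higher than in GRZ-BELL females, and none lower. Among the exceptions in red tails against MZCS002 females, ltk was at 51.3 ± 5.90 against 67.7 ± 36.0, oca2 at 15.6 ± 3.33 against 24.2 ± 15.9 and dct at 211 ± 14.8 against 173 ± 28.0. The sums of each list are dominated by its most abundant genes. The summed normalized counts of 6 xanthophore markers (yellow and orange pigment cells) ran from 37378 to 94448 in red tails, 8407 to 34538 in yellow tails, 500 to 1297 in MZCS002 females and 515 to 1528 in GRZ-BELL females. Most of the red and yellow sums was gch2, at 54884 ± 29798 in red and 12889 ± 12178 in yellow tails. The xanthophore marker aox6 was lower in red than in yellow tails, at 88.1 ± 12.7 against 876 ± 710 (limma adjusted p = 0.0074). It was the only 1 of the 6 that limma called between these tails, and it went against most of its list. Of the 6 differences 4 were above 0, with a median of 0.64 against -0.01 over all entries. For 3 of the 6, gch2, plin6 and xdh, all red libraries lay above all 9 others, against 4.83% of all entries. The sums of 8 melanophore markers (black pigment cells) ran from 6610 to 11769 in red tails, 7566 to 12014 in yellow tails, 1043 to 1853 in MZCS002 females and 1121 to 1527 in GRZ-BELL females. Those of 6 iridophore markers (reflecting cells) ran from 1694 to 2865, 3981 to 11439, 145 to 173 and 158 to 203 in the same order. No marker of these 3 lists was at 0 in a group. All 3 sums were thus higher in both kinds of coloured tail than in females of either strain. Red sums lay above yellow ones for xanthophores, below them for iridophores, and overlapped them for melanophores. Every red library lay above all 9 others for 1 of 8 melanophore markers, tspan10, and for 0 of 6 iridophore markers. For tspan10 red tails were called higher than yellow ones (1.44 ± 0.38, limma adjusted p = 0.039), a call lost without certain single libraries. For kcnk3a only red tails were high. The part of pigment cells in its level was not tested.

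Of the 65 tested markers, limma called 18 higher and 2 lower in red tails than in MZCS002 females and 18 higher and 0 lower in yellow tails than in GRZ-BELL females. The 2 lower were the skeletal muscle gene ckmb (-2.96 ± 0.66 SE, limma adjusted p = 0.027) and the nerve gene elavl4 (-1.99 ± 0.48, limma adjusted p = 0.037). Outside the pigment lists, the fin ray gene and1 and the chemosensory marker ascl1a were among those higher (limma adjusted p = 0.04998 and 0.043). Each of these named calls was lost without red 1. Between red and yellow tails limma called 3 higher and 4 lower in red. Between the females limma called 0 (13 at an unadjusted p under 0.05), edgeR 2 and DESeq2 4. For the interaction limma called 0 (18 at an unadjusted p under 0.05), edgeR 0 and DESeq2 7. Smooth muscle and mural cell markers, the tissue in which mammalian KCNK3 is best known, summed to 2775 to 3231 in red tails, 2633 to 3844 in yellow tails, 3316 to 4142 in MZCS002 females and 3506 to 4467 in GRZ-BELL females. None of the 5 tested genes of this list was called in red tails against either group by limma. At an unadjusted p under 0.05 there were 0 against MZCS002 females and 1 against yellow tails. The other 4 of its 9 listed markers, acta2, cnn1b, desma and mylkb, were not matched to an entry by symbol and were not analysed here. Skeletal muscle markers were low but uneven, at sums of 14.3 to 29.7 in red tails, 10.0 to 38.5 in yellow tails, 40.9 to 367 in MZCS002 females and 21.7 to 30.5 in GRZ-BELL females. Blood markers summed to 597 to 819 in red tails, 1237 to 1860 in yellow tails, 326 to 418 in MZCS002 females and 322 to 689 in GRZ-BELL females. Most of the red sum was the transferrin receptor gene tfr1a, with a mean of 645 ± 105 against one of 296 ± 72.1 for MZCS002 females. The erythroid gene slc4a1a was low in both, at 40.9 ± 18.3 against 28.5 ± 3.40, as was gata1a, at 9.84 ± 5.73 against 16.9 ± 12.5. Of the 4 tested blood markers 3 had a difference above 0 between these groups, with a median of 0.78 against 0.01 over all entries. No blood marker was called between these groups by limma. Compared with yellow tails, red tails were called lower for slc4a1a (-3.14 ± 0.52 SE, limma adjusted p = 0.0043) and gata1a (-2.64 ± 0.68, limma adjusted p = 0.034). Yellow tails were called higher than GRZ-BELL females for slc4a1a (2.51 ± 0.52, limma adjusted p = 0.027) and tfr1a (1.52 ± 0.30, limma adjusted p = 0.020). All but the first of these calls were lost when certain single libraries were left out. The part of muscle or blood in the level of kcnk3a was not tested.

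Outside the pigment lists, 2 markers were called higher in red tails in both comparisons. One was hsd3b1, a gene of steroid hormone synthesis, with normalized counts of 863, 1393 and 679 in red tails, 174, 303 and 86.6 in yellow tails, 27.9, 31.4 and 63.9 in MZCS002 females and 90.4, 25.8 and 14.9 in GRZ-BELL females. All red libraries lay above all others. The difference was 4.57 ± 0.61 against MZCS002 females (limma adjusted p = 0.0012) and 2.49 ± 0.61 against yellow tails (limma adjusted p = 0.030). The second call was lost without red 1, red 2, yellow 1 or yellow 3, and the adjusted p reached 0.13. The other was and2, which encodes an actinodin of the fibres at the fin edge. Its normalized counts were 821, 1079 and 856 in red tails, 53.2, 115 and 59.1 in yellow tails, 277, 157 and 65.9 in MZCS002 females and 307, 97.5 and 742 in GRZ-BELL females. All red libraries again lay above all others, though by a small margin over GRZ-BELL female 3. The difference was 3.66 ± 0.64 against yellow tails (limma adjusted p = 0.0058) and 2.67 ± 0.64 against MZCS002 females (limma adjusted p = 0.037). The latter call ended without any 1 red library, yellow 1 or 3, MZCS002 female 3 or GRZ-BELL female 1, and the adjusted p reached 0.15.

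Genes with the profile most like that of kcnk3a were ranked by the root mean square difference between log2 profiles over the 12 libraries, each centred on its own mean, so that 0 is an identical shape. Over all tested entries the median of this measure was 2.63 log2 units and the smallest 0.75. These genes were found from the same values, so no test is given, and likeness is a matter of shape here. All 8 with a symbol had every red library above every other library, and red 2, the highest library of kcnk3a, was the highest in 7 of the 8. A ranking by likeness to kcnk3a favours both of these traits.

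The closest was slc30a8, which encodes a zinc transporter of secretory vesicles, at 0.75. Its normalized counts were 958, 1923 and 675 in the red libraries, the same order as for kcnk3a, and at most 61.1 elsewhere. Next came 2 further membrane transport or lipid genes: slc6a1b, a GABA transporter gene (1.01), with 53.8 ± 17.5 in red tails and 10 reads in all other libraries together, and agmo, an alkylglycerol monooxygenase gene whose enzyme uses the pteridine cofactor tetrahydrobiopterin (1.04), with 17262 ± 5003 in red tails and up to 3270 elsewhere. The cytokine gene il34, whose product is a ligand of the Csf1 receptor, followed at 1.05, with 826 ± 93.4 in red tails and no more than 97.5 in another library.

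The fifth was asmt, which encodes the last enzyme of melatonin synthesis (1.20). It had 60.3, 51.4 and 72.4 normalized counts in red tails and no read in the other 9 libraries, so it was at least 17.1-fold higher in red tails when the others are set to 3 reads per library. Both asmt and slc6a1b reached the mean of 10 needed for testing only through the red libraries. The tetraspanin gene tspan36, known from zebrafish pigment cells (1.31), the organic anion transporter gene slc22a7a (1.35) and mreg, a melanosome transport gene (1.36), completed the list. The last 3 were less restricted, at 6.15, 9.39 and 7.54 times the mean of the other 9 libraries, against 34.5 times for kcnk3a. In 6 of the 8 genes the yellow tail mean lay above both female means. For il34 this margin was within the SD (65.4 ± 15.3 against 63.7 ± 31.8 in GRZ-BELL females), and for slc6a1b it rested on 6 yellow tail reads. For kcnk3a the yellow tail mean lay below the GRZ-BELL female mean by less than the SD of either.

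The mirror image of the profile, low in red tails and high elsewhere, was approached less closely. The nearest genes with a symbol were myocd, a coactivator gene of smooth muscle (1.41), camsap1a, a microtubule minus-end gene (1.63), the ribosomal protein gene rpl14 (1.64) and klf15, a transcription factor gene (1.65). Of myocd, red tails held 2.13 ± 0.36, yellow tails 22.8 ± 11.7, MZCS002 females 39.7 ± 29.6 and GRZ-BELL females 16.9 ± 2.00 (SD, n = 3 each). The libraries of red tails lay below all others. For myocd, rpl14 and klf15 the highest library was MZCS002 female 2, the shallow library in which kcnk3a had no read.

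**Figure D3:**
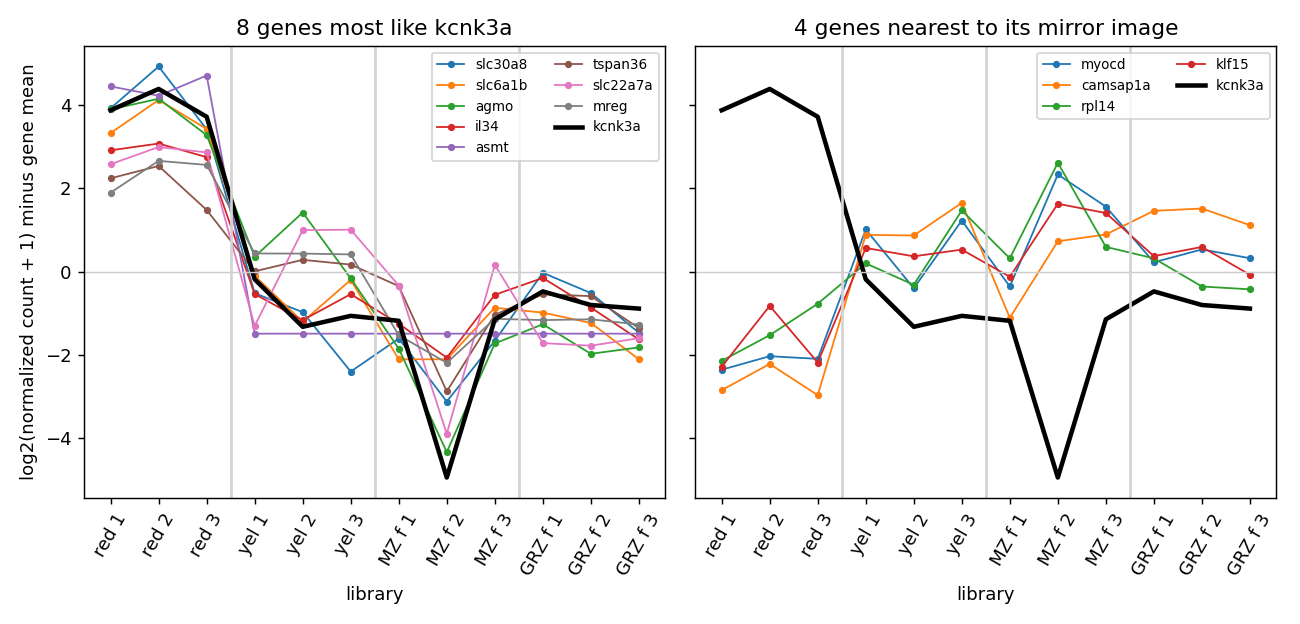
Profiles over the 12 libraries as log2(normalized count + 1) minus the gene's mean, for kcnk3a (black) with the 8 most alike genes (left) and the 4 nearest to its mirror image (right). Lines join libraries only to show each gene's shape. All 8 genes on the left are highest in the 3 red libraries, and the lowest point of kcnk3a is MZCS002 female 2.

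None of the tested genes next to kcnk3a had every red library above every other library. The neighbour slc35f6 had the same order of group means as kcnk3a, and was higher in red tails than in MZCS002 females. The order of genes was taken from the RefSeq annotation of assembly NfurGRZ-RIMD1, with 5 genes on each side, a comparison chosen after the data had been seen. Of these 10, 8 had an entry in the table and 7 were tested. The gene next to kcnk3a on one side, enpp1, which encodes an ectonucleotide pyrophosphatase, had a mean of 1148 ± 397 in red tails and of 1227 ± 527 in the females of MZCS002 (-0.06 ± 0.35). On the other side slc35f6, a gene of the solute carrier family 35, had normalized counts of 407, 365 and 265 for red tails against 170, 69.1 and 175 for MZCS002 females. In yellow tails slc35f6 stood at 162, 185 and 168, below all red libraries. In GRZ-BELL females it stood at 255, 304 and 159, which overlapped red tails. Its means were 346 in red tails, 239 in GRZ-BELL females, 171 in yellow tails and 138 in MZCS002 females. Red minus yellow tails came to 0.99 ± 0.37 (limma adjusted p = 0.12) and the interaction to 1.84 ± 0.52 (limma adjusted p = 0.16). The gene slc35f6 was the only neighbour called, in red tails against MZCS002 females (1.41 ± 0.37, limma adjusted p = 0.048). The call was lost without red 1, red 2, MZCS002 female 2 or 3, or any 1 of the yellow or GRZ-BELL female libraries, and the adjusted p reached 0.17. In the other 4 comparisons limma called 0 neighbours, with 2 at an unadjusted p under 0.05 for red against yellow tails, 0 for yellow tails against GRZ-BELL females, 2 between the females and 1 for the interaction. With edgeR 0 were called in all 5, and DESeq2 called 1 for red tails against MZCS002 females, 1 for red against yellow tails and 1 for the interaction.

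**Figure D4:**
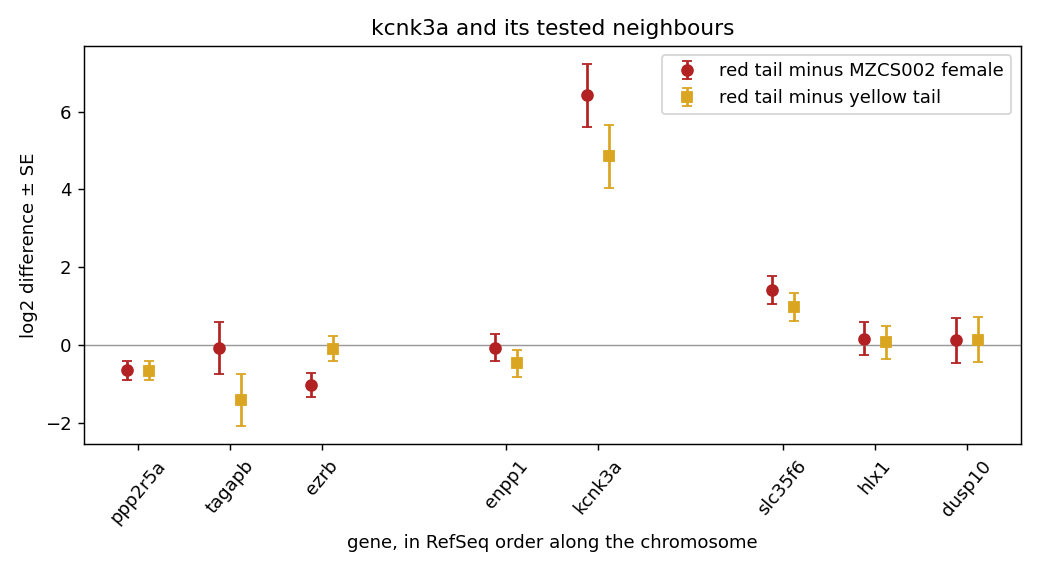
Difference on the log2(normalized count + 1) scale ± SE of the fit for kcnk3a and its 7 tested neighbours in chromosome order, for red tails minus MZCS002 females (circles) and red minus yellow tails (squares). Gaps on the axis are genes that were not tested. The values of kcnk3a are 6.42 and 4.85, and slc35f6 is the only neighbour called, at 1.41.

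A gene model without an entry in the deposited table, LOC139066322, overlaps kcnk3a in the RefSeq annotation. The sources used here do not name the strand setting of the counting, so reads of an overlapping transcript on the other strand and reads of kcnk3a could not be told apart.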

How the data were processed

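RNA-seq of 12 tail fin libraries was analysed. The deposited table holds a signal per transcript: per the submitters' processing notes, reads were handled with Trimmomatic, STAR, featureCounts and DESeq2, and the values fit read counts scaled by 1 size factor for each library. The sources used here name no versions, build or strand setting. Whole reads were recovered from the deposited values (100% whole within 0.01 read). RefSeq names (assembly NfurGRZ-RIMD1) matched 14145 of 20788 entries by accession, and 10617 had a symbol. Intervals and floors (3 reads) cover counting error only.

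Genes were tested with limma 3.58.1 (R 4.3.3, moderated with an intensity trend) on log2(value + 1) for the 15170 entries with a mean of at least 10, with all 12 libraries in 1 fit and group as the only term, tested on simulated data. A fold on this scale can understate the change of low genes, but a library without a read can also widen it. For kcnk3a, MZCS002 female 2 had no read. Leaving it out moved red tails minus MZCS002 females from 6.42 to 5.16 and the interaction from 6.55 to 5.29. The kcnk3a differences that use that library are therefore not lower bounds. Samples were grouped by title. Alternatives were other scalings, pseudocounts and filters, edgeR 4.0.16 and DESeq2 1.42.0 on recovered reads, only the groups compared, a replicate block, and leaving out each library.

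The gene and all lists were chosen with earlier results of these data known. Named genes were kcnk3a, every K2P entry, the 8 most alike and 4 mirrored genes, and a set of fin genes. The limma-called members of the channel list, the partner list and the mixed fin, pigment and ion transport list were also named. The markers named are a part of those called or tested, picked after their values were seen. Others are said to be picked after their values were seen, or had the smallest p of their list. A further number in the labels, of unknown meaning, goes with strain. The biological replicates are not described further, so p-values measure the spread between these samples.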

Additional observations from a re-analysis of the deposited data

How the results depend on the processing

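The direction of the kcnk3a difference from red tails to MZCS002 females and to yellow tails, and of the interaction, was kept under every other scaling and pseudocount and without any 1 library. Without 1 library the log2 difference ran from 5.16 to 7.05 for red tails minus MZCS002 females, 4.62 to 5.19 for red minus yellow tails and 5.29 to 7.19 for the interaction. It ran from -2.34 to -0.44 between the females, and from -0.47 to 0.10 for yellow tails minus GRZ-BELL females. The values of 5.16, -0.44 and 5.29 are those without MZCS002 female 2. Depth limits what can be said of kcnk3a outside red tails, where libraries held 0 to 26 reads.

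Comparisons are given below as A (red tails against MZCS002 females), B (red against yellow tails), C (yellow tails against GRZ-BELL females), D (MZCS002 against GRZ-BELL females) and E (the interaction). As a share of all entries in the fit, limma called 4.53% in A, 7.43% in B, 1.84% in C, 1.74% in D and 0.178% in E, and DESeq2 11.6%, 15.5%, 4.69%, 5.33% and 4.12%. With only the groups compared the share was 0.738% in A, 11.6% in B, 3.60% in C and 0.488% in D. It was 2.58% in A with no filter. In E it was 0.105% at a pseudocount of 0.5 or with a mean of at least 50, and 0.323% at a pseudocount of 5. Without 1 library the ranges were 1.13% to 7.69%, 2.25% to 17.2%, 1.00% to 3.51%, 0.732% to 2.36% and 0.0461% to 0.883%. The highest shares in A, B, C and E were all those without MZCS002 female 2, the shallow library. That library is in neither group of B or C but is part of the shared fit.

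For the other K2P genes (0 called in each), DESeq2 called 1 in B, 1 in C and 1 in E, the fit of only the groups compared 1 in C, and leaving out 1 library gave 0 to 1 in B and 0 to 1 in C. All of these calls were kcnk1b. Those without 1 library came without MZCS002 female 2 in B, and without that library or red 1 in C. For the remaining potassium channels, A had 1 with no filter, 3 with DESeq2 and 0 to 2 without 1 library. B had 0 at equal totals or a mean of at least 50, 2 at a pseudocount of 5, with edgeR or with only the groups compared, 3 with DESeq2, and 0 to 3 without 1 library. D had 0 at a pseudocount of 0.5, with no filter, with a mean of at least 50 or with only the groups compared, and 0 to 1 without 1 library. For TASK partners, DESeq2 called 2 in A, 3 in B and 2 in C, no filter gave 1 in B, only the groups compared gave 1 in C, and leaving out 1 library gave 0 to 1 in A, B and C. For the mixed list of fin, pigment and ion transport genes, DESeq2 called 2 in A, 2 in B, 1 in C and 1 in E. For that list no filter gave 1 in B, and only the groups compared gave 0 in A and 3 in B. Leaving out 1 library gave 0 to 2 in A and B and 0 to 1 in C. For cell type markers, B had 4 with no filter, 12 with edgeR, 17 with DESeq2 and 16 with only the groups compared. It had 3 to 17 without 1 library, where 17 was the count without MZCS002 female 2. D had 2 by quantile normalization or edgeR, 4 with DESeq2 and 0 to 2 without 1 library. E had 1 at equal totals, 7 with DESeq2 and 0 to 3 without 1 library. The cause of these changes was not tested. Of 49 limma calls of list members and neighbours of kcnk3a, 29 held under every alternative, most of them calls of pigment cell markers. Among the calls that did not hold were those of kcnh1a, kcnj6, atp1b1b and slc35f6. The same was true of and2 against MZCS002 females and of hsd3b1 for red against yellow tails. Calls that held included aox6, and2 and slc4a1a for red against yellow tails, and hsd3b1 against MZCS002 females.

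Same-numbered libraries of different groups did not deviate together (18 pairs, correlations -0.31 to 0.17, 3 above 0.1), so the numbers are not taken as pairs. With the replicate number as a block, the share over all entries was 2.29% in A and 0.0923% in E, the K2P genes had 1 call in B (kcnk1b), the other potassium channels 0 in B and the markers 1 in D. Of the 8 genes most like kcnk3a, ranking by Pearson correlation shared 3, a mean of at least 50 shared 5, and leaving out 1 library shared 5 to 8. In all 20 settings slc30a8 and il34 stayed among the 8.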
